A study of Mus musculus with 6 samples.

Results

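Keratins are the intermediate filament proteins of epithelia, and 9 genes were chosen by name: the simple epithelial keratins Krt7, Krt8, Krt18 and Krt19, and the squamous genes Krt5, Krt14, Krt15, Krt17 and Sprr1a. Of these, 8 genes had values among the 15016 genes of the series, 4 simple and 4 squamous, and Krt15 was not analysed here. RNA-seq set organoids in stiff gels against organoids in soft gels, at 3 libraries a group. All were grown from wild-type mouse cochlear progenitor cells, which are cells of the inner ear. Organoids of both groups were first expanded in a medium with EGF, bFGF, IGF, CHIR99021, valproic acid, phospho-ascorbic acid and 616452, and differentiated in CHIR99021, an inhibitor of the kinase GSK3, plus LY411575, which inhibits gamma-secretase and thereby Notch signalling. Hydrogels of either stiffness received them at differentiation, and the comparison asks how matrix stiffness acts on them. How stiff each gel was, and for how long organoids stayed in it, the sources used here do not give. Replicates are numbered 1 to 3, with no word on whether they came from separate cultures or animals; p-values therefore reflect the spread among these libraries alone, which may be technical.

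A keratin filament is built from pairs of an acidic type I keratin and a basic type II keratin, and each kind of epithelium is known for its own pairs. Krt8 (type II) and Krt18 (type I) form the filaments of simple, single-layered epithelia, with Krt7 (type II) and Krt19 (type I) added in many ducts and lining epithelia. Krt5 (type II) and Krt14 (type I) form the filaments of the basal layer of stratified epithelia, where Krt15 is also found, and Krt17 (type I) is known for its appearance in skin appendages and in wounded epidermis. Sprr1a is not a keratin: it encodes a small proline-rich protein that is cross-linked into the cornified envelope of squamous cells, and it is also known as a gene switched on in injured nerve and heart.

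The libraries held 16108470 to 17899391 reads over the listed genes. Soft replicate 1 stood apart from its group: across 11780 genes its r was 0.990 to 0.992 with the stiff libraries and 0.992 and 0.991 with soft replicates 2 and 3, while the stiff libraries correlated with each other at 0.994 to 0.995 and soft replicates 2 and 3 at 0.996. Markers of the cochlear epithelium were present, with 11 of the 12 listed markers in the table, and their summed level was 505 to 589 FPKM in stiff and 380 to 467 FPKM in soft gels. Epcam, which was not called (268 FPKM in stiff and 229 FPKM in soft gels on average, limma adjusted p = 0.147), was the largest term of that sum. Of the 9 tested, 5 rose and 0 fell (limma), against 3.13% higher and 2.68% lower over all tested genes. Those that rose were Sox2, Tecta, Lgr5, Otog and Jag1, with log2 fold changes of 0.81 (Jag1) to 1.33 (Sox2). Cdh1 ran the other way, at 55.5 FPKM in stiff and 64.5 FPKM in soft gels on average. Its groups did not overlap, as in 10.4% of all tested genes with stiff lower. Cdh1 was not called (limma adjusted p = 0.13), but the authors' deposited table has it lower (log2 fold change -0.25, q = 0.0496). The mesenchyme markers, all 9 of them listed, summed to 750 to 774 FPKM in stiff and 591 to 726 FPKM in soft gels, mostly Lum and Dcn, with Col1a1 and Col1a2 under 1 FPKM. Of the 7 tested, 0 were called (limma; 3 had an unadjusted p under 0.05), and Col3a1 ran against the sum, at 35.1 FPKM in stiff and 72.7 FPKM in soft gels. Col1a2 and Col1a1, under the filter on low values, were lower in stiff gels too, without overlap, as in 10.3% of all listed genes. Col1a2 averaged 0.127 FPKM in stiff and 0.515 FPKM in soft gels (q = 5.24e-05 in the authors' deposited table). Col1a1 averaged 0.117 and 0.184 FPKM (q = 0.602). The defining hair cell genes Atoh1 and Pou4f3 were not analysed here. FPKM divide a gene's fragments by its length and by the depth of the library, so levels of different genes can be set side by side.

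Krt7, Krt19, Krt17 and Sprr1a were lower in stiff gels, while the abundant pair Krt8 and Krt18 was not called in either direction. Of the 8 genes, 4 fell in stiff gels, 0 rose, 2 were not called and 2 lay under the filter on low values (limma, Benjamini-Hochberg adjusted p under 0.05 over 11780 genes with a mean of at least 1 FPKM in either group). Of all tested genes 2.68% were called lower and 3.13% higher. The genes, and the lists below, were chosen with earlier results of these data known, so these shares give a scale and do not test a set. In the authors' deposited table, the same 4 of the 8 genes had q under 0.05, all lower, where 4.68% of listed genes were lower and 3.44% higher at that q. By class, 2 of the 4 simple keratins fell, with a median log2 fold change of -0.42, and so did both squamous genes above the filter, with a median of -0.96, against a median of 0.03 over all tested genes. Of the squamous genes, Krt17 passed the filter only through the soft group (0.820 FPKM in stiff and 2.01 FPKM in soft gels). Krt5, higher in every stiff library than in any soft library, lay under it. A gene under 1 FPKM in stiff gels enters only where soft gels are higher, so the squamous count and median partly follow from the filter. The difference between the classes was not tested. In these bulk samples, fewer cells of a type and less RNA per cell cannot be told apart.

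**Figure D1:**
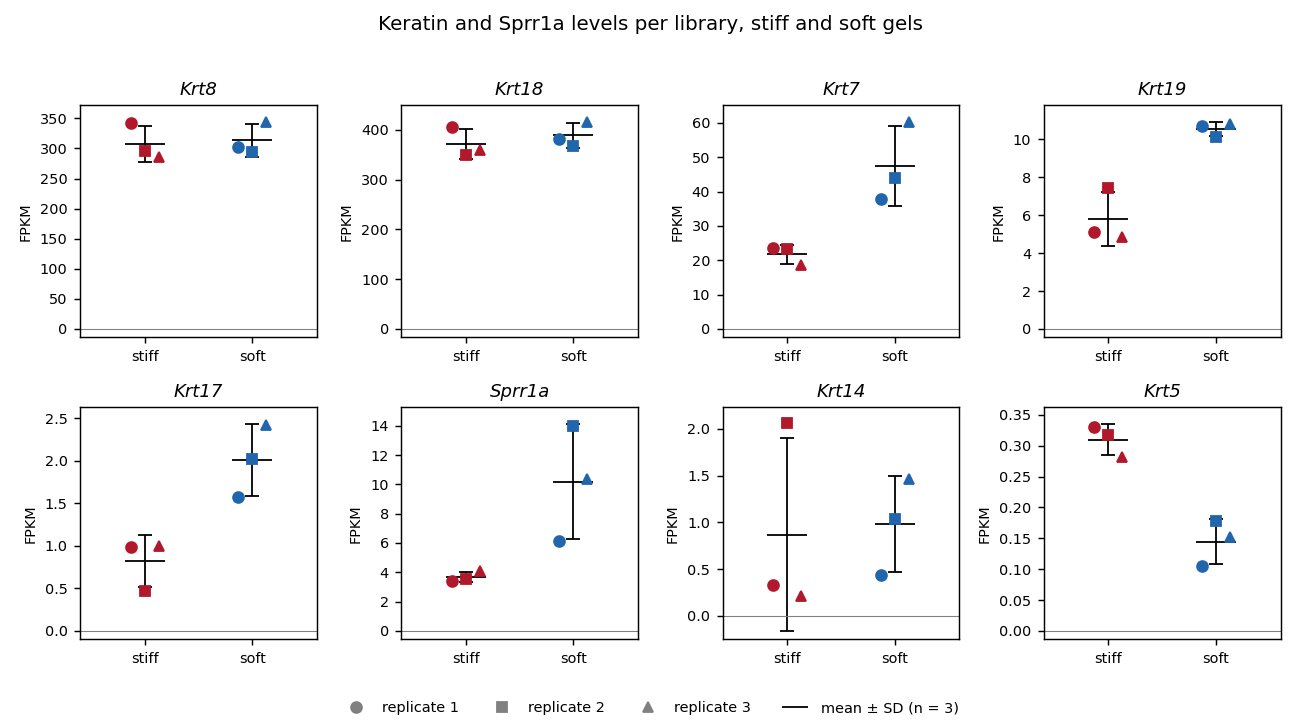
FPKM of the 8 genes in each library, stiff gels left of soft gels; symbols mark replicate numbers, and bars give the mean ± SD of 3 libraries. Krt7, Krt19, Krt17 and Sprr1a lie lower in all 3 stiff libraries than in any soft library, Krt8 and Krt18 overlap between gels, and Krt14 ranges from 0.217 to 2.06 FPKM within the stiff group.

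Krt18 and Krt8 were by far the most abundant keratins. Krt18 stood at 406, 349 and 360 FPKM in stiff replicates 1 to 3, against 382, 368 and 416 FPKM in soft replicates 1 to 3. Krt8 stood at 342, 296 and 285 FPKM in the stiff libraries, against 302, 294 and 344 FPKM in the soft libraries. The groups overlapped for both genes; soft replicate 3 was the highest library for each, and a stiff library the lowest. The log2 fold change of Krt18 was -0.065 ± 0.081 (SE; limma adjusted p = 0.716), with a 95% interval of the stiff-to-soft ratio from 0.841 to 1.09. That of Krt8 was -0.027 ± 0.091 (SE; limma adjusted p = 0.912), with an interval from 0.851 to 1.13, and its sign turned to 0.025 without stiff replicate 3 and to 0.042 without soft replicate 3. A missed threshold does not show equal levels, but these intervals leave out a change as large as that of Krt7.

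Both partners moved together from library to library. The level of Krt8 was 84.1%, 84.8% and 79.3% of that of Krt18 in the stiff libraries, against 79.1%, 79.7% and 82.7% in the soft libraries, so the ratio was nearly constant and the groups overlapped. Their Pearson r over the 6 libraries was 0.92, given as a description since all values of a library share its depth. Together they made up 93.8% to 95.4% of the summed FPKM of the 23 listed keratin genes in stiff gels and 89.999% to 91.9% in soft gels. Krt18 ranked between 123rd and 152nd among all genes by FPKM, and Krt8 between 147th and 174th. The genes are neighbours on chromosome 15 (GRCm38; Krt8 at 101996698 to 102004482 on the minus strand, Krt18 at 102028180 to 102032027 on the plus strand), 23.7 kb apart. Krt8 shares 26.9% of its 50-base transcript stretches with the pseudogene Krt8-ps, and exons of Gm36026 overlap it on the other strand, so its count is less certain than that of Krt18, for which the share with the closest other gene was 0.36%.

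Krt7, the type II keratin of ducts and glands, fell in stiff gels. It stood at 23.5, 23.2 and 18.6 FPKM in the stiff libraries, against 37.7, 44.0 and 60.3 FPKM in the soft libraries. Every stiff library lay below every soft library, as in 10.4% of all tested genes, and soft replicate 1 was the lowest of the soft group. The mean was 21.7 ± 2.76 FPKM in stiff and 47.3 ± 11.6 FPKM in soft gels (SD, n = 3 each), and stiff minus soft came to -1.07 ± 0.16 on the log2 scale (SE; limma adjusted p = 0.0104). The call held in 5 of the 6 fits that left out a library and was lost without soft replicate 2 (limma adjusted p = 0.0518; log2 fold change -1.11). For Krt7 the authors' deposited table has a log2 fold change of -1.15 (q = 2.08e-11). Krt7 lies on chromosome 15 at 101411043 to 101430313 (GRCm38, plus strand), 566 kb from Krt8 in the type II keratin cluster. Set against Krt8, the main type II keratin, Krt7 was at 6.87%, 7.82% and 6.50% of the Krt8 level in stiff libraries and at 12.5%, 15.0% and 17.5% in soft libraries.

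Krt19, the smallest keratin and a partner of Krt8 and Krt7 in simple epithelia, fell as well. It stood at 5.11, 7.44 and 4.87 FPKM in the stiff libraries, against 10.7, 10.1 and 10.8 FPKM in the soft libraries. The soft libraries lay close together, soft replicate 1 included, and stiff replicate 2 was the highest of the stiff group but still below them. The mean was 5.81 ± 1.42 FPKM in stiff and 10.6 ± 0.363 FPKM in soft gels (SD, n = 3 each), and stiff minus soft was -0.78 ± 0.13 (log2, SE; limma adjusted p = 0.0136). For Krt19 the authors' deposited table has -0.89 (q = 4.78e-05). The call was lost without stiff replicate 1, stiff replicate 3 or soft replicate 2 (limma adjusted p = 0.0707, 0.0515 and 0.0593). Krt19 lies in the type I keratin cluster on chromosome 11 (100140810 to 100148665, minus strand), and 0% of its 50-base stretches occur in another gene. Its level was 1.26%, 2.13% and 1.35% of that of Krt18 in stiff libraries, against 2.81%, 2.75% and 2.60% in soft libraries.

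Among the squamous genes, Sprr1a fell. It stood at 3.41, 3.54 and 4.09 FPKM in the stiff libraries (48, 48 and 52 reads), against 6.14, 14.003 and 10.4 FPKM in the soft libraries (84, 198 and 147 reads). The stiff libraries were close together and the soft libraries were spread out, with soft replicate 1 the lowest, and the groups did not overlap. The mean was 3.68 ± 0.360 FPKM in stiff and 10.2 ± 3.94 FPKM in soft gels (SD, n = 3 each), or -1.19 ± 0.22 as stiff minus soft (log2, SE; limma adjusted p = 0.02). For Sprr1a the authors' deposited table has -1.50 (q = 8.37e-06). The call held only without soft replicate 1 (log2 fold change -1.49) among the fits that left out a library; in the other 5 the limma adjusted p was 0.0514 to 0.0909. Sprr1a lies in the epidermal differentiation region of chromosome 3 (92483952 to 92485895, minus strand), and 0% of its 50-base stretches occur in another gene.

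Krt17, the type I keratin of wounded and appendage epithelium, also fell, from low levels. It stood at 0.993, 0.468 and 0.999 FPKM in the stiff libraries (22, 10 and 20 reads), against 1.58, 2.02 and 2.43 FPKM in the soft libraries (34, 45 and 54 reads). The groups did not overlap, and the gene passed the filter through the soft group. The mean was 0.820 ± 0.305 FPKM in stiff and 2.01 ± 0.424 FPKM in soft gels (SD, n = 3 each), with stiff minus soft at -0.73 ± 0.15 (log2, SE; limma adjusted p = 0.028). The pseudocount of 1 weighs on so low a gene: the log2 fold change was -1.33 with limma-voom on reads rebuilt from the table (limma adjusted p = 0.0402), and the authors' deposited table also has -1.33 (q = 0.0169). Of the fits without a library, the call held only without soft replicate 1 and was lost in the other 5 (limma adjusted p = 0.0563 to 0.104). Krt17 lies 48.7 kb from Krt14 on chromosome 11 (100256217 to 100261029, minus strand) and shares 3.66% of its 50-base stretches with it.

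**Figure D2:**
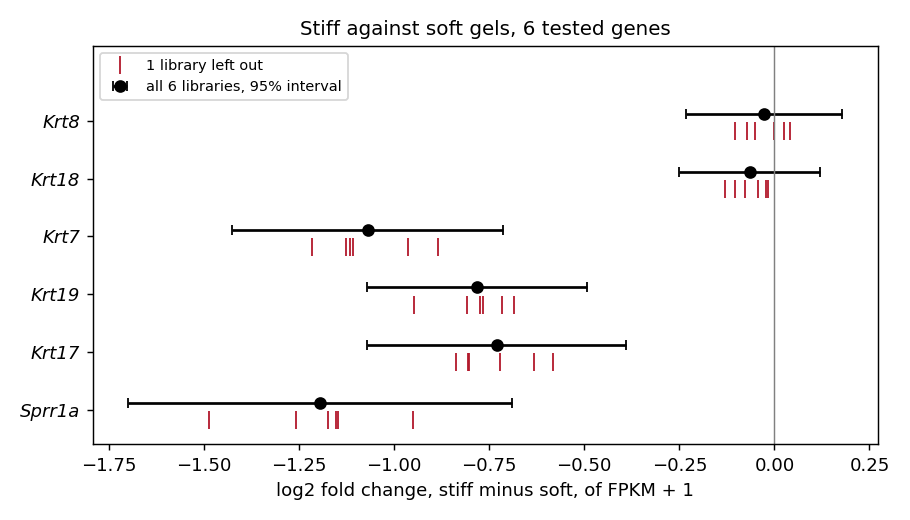
Log2 fold change of FPKM + 1, stiff minus soft, for the 6 tested genes: points with 95% intervals from all 6 libraries, and ticks for the 6 fits that each left out 1 library. Krt7, Krt19, Krt17 and Sprr1a stay below 0 in every such fit, and Krt8 has ticks on both sides of 0, from -0.10 to 0.042.

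Krt5 and Krt14, the basal pair of stratified epithelia, were both near the floor of detection and did not follow each other. Krt5 stood at 0.331, 0.317 and 0.282 FPKM in the stiff libraries, from 13, 12 and 10 reads, against 0.105, 0.177 and 0.152 FPKM in the soft libraries, from 4, 7 and 6 reads. Each stiff library was above each soft library, as in 14.5% of all listed genes. Over each group the reads summed to 35 (95% exact Poisson interval 24.4 to 48.7) in stiff and 17 (9.90 to 27.2) in soft gels, intervals that cover counting error only. They overlap, but overlap of separate intervals is not a test of the difference between gels. Without the filter on low values Krt5 was not called (log2 fold change 0.19, limma unadjusted p = 0.00289, limma adjusted p = 0.0637), nor was it in the authors' deposited table (1.07, q = 0.479). Krt5 lies on chromosome 15 (101707070 to 101712898, minus strand). It shares 6.98% of its 50-base stretches with Krt6a, and exons of Gm44323 overlap it on the other strand.

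Krt14 varied more within the groups than between them. It stood at 0.326, 2.06 and 0.217 FPKM in the stiff libraries (10, 61 and 6 reads), against 0.436, 1.04 and 1.46 FPKM in the soft libraries (13, 32 and 45 reads). Stiff replicate 2 was the highest of all 6 and the other stiff libraries were the lowest. The mean was 0.869 ± 1.04 FPKM in stiff and 0.979 ± 0.515 FPKM in soft gels (SD, n = 3 each), and without the filter the log2 fold change was -0.18 ± 0.35 (SE; limma adjusted p = 0.837). Krt14 lies on chromosome 11 (100203162 to 100207548, minus strand) and shares 11% of its 50-base stretches with Krt16, its neighbour in the cluster.

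The wound keratins Krt6b and Krt6a, type II keratins of activated epidermis, were named after their values were seen, because the same library was the highest. Krt6b stood at 0.426, 1.95 and 0.388 FPKM in the stiff libraries, against 0.103, 0.848 and 0.897 FPKM in the soft libraries. Krt6a stood at 0.0497, 0.361 and 0.0825 FPKM in the stiff libraries, against 0, 0.124 and 0.0990 FPKM in the soft libraries, from 0 to 14 reads. Stiff replicate 2 was again the highest library for both, and soft replicate 1 the lowest. The Pearson r with Krt14 over the 6 libraries was 0.90 for Krt6b and 0.79 for Krt6a, as a description. Krt6a and Krt6b share 40.2% of the Krt6a stretches of 50 bases, so their reads cannot be assigned with certainty to either gene. In the same stiff replicate 2, Krt17 was the lowest of all 6 libraries.

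**Figure D3:**
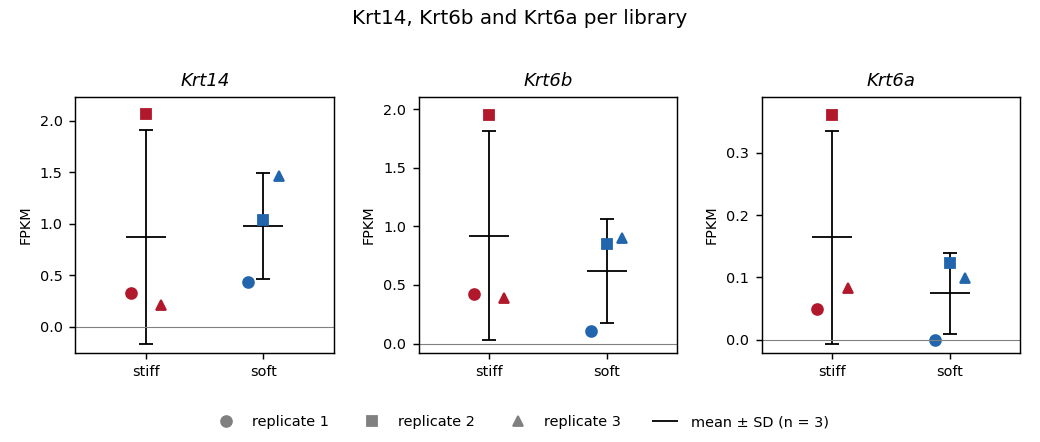
FPKM of Krt14, Krt6b and Krt6a in each library, stiff gels left of soft gels, with the mean ± SD of 3 libraries. Stiff replicate 2 is the highest library in each panel, at 2.06, 1.95 and 0.361 FPKM.

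In the order of levels, Krt18 and Krt8 were followed by Krt7, then Krt19, Sprr1a, Krt17, Krt14 and Krt5, by the mean FPKM of all 6 libraries. Krt19 and Sprr1a were not separated in soft gels, where their ranges overlapped, while in stiff gels every library of Krt19 was above every library of Sprr1a. Krt17 and Krt14 overlapped in stiff gels, and in soft gels every library of Krt17 was above every library of Krt14. Likewise Krt14 and Krt5 overlapped in stiff gels and not in soft gels. Across libraries, Krt7 went with Krt19, Krt17 and Sprr1a (Pearson r = 0.89, 0.88 and 0.87 over 6 libraries) and less with Krt8 (0.40); these values include the difference between gels and are a description.

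For Krt7 the genes with the most similar profile were Spp1, which encodes the secreted matrix protein osteopontin, the transcription factor gene Ets2, and Nfe2l2, which encodes the oxidative stress regulator NRF2 (r = 0.996, 0.995 and 0.991). For Sprr1a they were Hdac7, Pdk4 and Agfg1 (r = 0.990, 0.988 and 0.982), and for Krt19 they were Qk, Hunk and Ckap4 (0.992, 0.983 and 0.980). Krt17 was most like Stt3a, Pgm2 and Zfp871 (0.982, 0.980 and 0.977). Krt8 was most like Acly, Ercc3 and BC029722 (0.982, 0.968 and 0.967), and Krt18 most like Cad, Hcfc1 and Mrpl38 (0.969, 0.943 and 0.941). These are the 3 highest Pearson r for each gene over 6 libraries among 6092 genes with a mean of at least 10 FPKM. Taken from the top of so many genes, they are high by selection. They include the difference between gels, and shared regulation was not tested.

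Upstream sequence is shown for the genes that fell and had an entry, Sprr1a and Krt7, and for Krt8 and Krt18, which were not called, to set the letters of the groups side by side. The windows are the 250 bases before the RefSeq start (RefSeq, GRCm38.p6), given 5′ to 3′ on the gene's strand: chr3:92485882-92486131 (minus) for Sprr1a, chr15:101412153-101412402 (plus) for Krt7, chr15:102004343-102004592 (minus) for Krt8 and chr15:102027966-102028215 (plus) for Krt18. Capitals mark matches, on either strand, of the AP-1 motif TGANTCA, the GC box GGGCGG and the TEAD motif GGAATG, which do not overlap one another here.
Sprr1a: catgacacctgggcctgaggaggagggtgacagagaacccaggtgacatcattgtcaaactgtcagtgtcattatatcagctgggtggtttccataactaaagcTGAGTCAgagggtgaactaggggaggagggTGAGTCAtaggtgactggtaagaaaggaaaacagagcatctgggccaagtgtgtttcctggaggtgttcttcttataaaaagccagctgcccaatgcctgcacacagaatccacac
Krt7: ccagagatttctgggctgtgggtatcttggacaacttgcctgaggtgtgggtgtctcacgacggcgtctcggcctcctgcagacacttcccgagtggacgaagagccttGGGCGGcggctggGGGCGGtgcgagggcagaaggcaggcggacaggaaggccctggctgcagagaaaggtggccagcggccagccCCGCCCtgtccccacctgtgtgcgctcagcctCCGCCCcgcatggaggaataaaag
Krt8: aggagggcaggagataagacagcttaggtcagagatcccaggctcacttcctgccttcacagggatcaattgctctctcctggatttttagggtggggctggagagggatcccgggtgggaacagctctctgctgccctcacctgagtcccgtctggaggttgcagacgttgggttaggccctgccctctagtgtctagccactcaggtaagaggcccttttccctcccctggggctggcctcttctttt
Krt18: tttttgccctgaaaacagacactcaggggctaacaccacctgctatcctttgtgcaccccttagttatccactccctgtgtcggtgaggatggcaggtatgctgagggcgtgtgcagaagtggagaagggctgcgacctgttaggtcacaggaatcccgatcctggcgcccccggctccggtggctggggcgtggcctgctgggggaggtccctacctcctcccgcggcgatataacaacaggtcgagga
The Sprr1a window held 2 AP-1 motifs, which begin 146 and 116 bases before the start. The Krt7 window held 4 GC boxes and 0 AP-1 motifs, and the windows of Krt8, Krt18 and Krt5 held 0 matches of the 3 motifs. The Krt14 window, not printed here, held 1 TEAD motif, which begins 66 bases before the start. GENCODE places the outermost start of Krt14 1518 bases upstream of the RefSeq start. Of 32536 upstream windows of the same length, 6.73% held an AP-1 motif, 33% a GC box and 12.6% a TEAD motif, so a GC box is common. A match is a description of letters and not of binding. GENCODE places the outermost start of Krt7 1360 bases, of Krt8 140 bases, of Krt18 36 bases and of Sprr1a 14 bases upstream of the RefSeq start, so the Krt7 window lies inside the gene as GENCODE draws it.

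Of the 16 other keratin genes in the table, 3 were tested and 0 were called (limma; 1 had an unadjusted p under 0.05). That was Krt23, a type I keratin, at 2.17, 2.93 and 2.56 FPKM in the stiff libraries, against 4.32, 3.79 and 3.14 FPKM in the soft libraries (log2 fold change -0.42 ± 0.12 SE, limma adjusted p = 0.0736; authors' deposited table -0.58, q = 0.126). Krt79, a type II keratin 56.4 kb from Krt8, was named after its values were seen. It stood at 0.187, 0.0833 and 0.0888 FPKM in the stiff libraries, against 0.826, 0.693 and 0.852 FPKM in the soft libraries, or 13 against 88 reads in all. The groups did not overlap, as in 10.3% of all listed genes with stiff lower, but the level was under the filter; without the filter it was called lower (log2 fold change -0.68 ± 0.06 SE, limma adjusted p = 0.00835), in a fit that called 1.47% of genes lower, and the authors' deposited table has it lower as well (-2.74, q = 0.000186). Krt10, the keratin of differentiating epidermis, was at 1.64 FPKM in stiff and 1.46 FPKM in soft gels on average (limma adjusted p = 0.685).

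**Figure D4:**
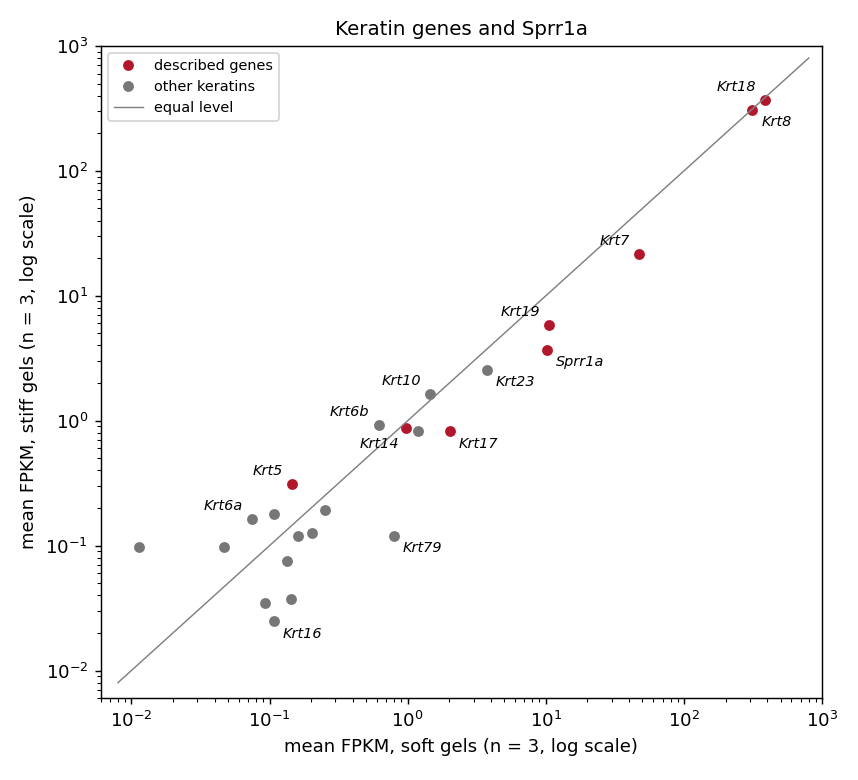
Mean FPKM of the 23 keratin genes and Sprr1a in stiff gels against soft gels, both axes logarithmic, n = 3 each; red points are the 8 described genes, and the line marks equal levels. Krt8 and Krt18 lie close to the line, and Krt7, Krt19, Sprr1a, Krt17 and Krt79 lie below it.

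Most other genes of the squamous programme were not called. Of 45 listed Sprr and cornified envelope genes, 15 were in the table and 9 were tested, of which 2 fell and 0 rose, with a median log2 fold change of -0.17. For this and the lists that follow, the shares over all tested genes are 2.68% lower and 3.13% higher, with a median of 0.03. Anxa1, which encodes annexin A1, a membrane-binding component of the envelope that many other cells also make, was at 27.1 FPKM in stiff and 49.0 FPKM in soft gels on average (log2 fold change -0.81 ± 0.17 SE, limma adjusted p = 0.027). The Anxa1 call was lost without the filter (limma adjusted p = 0.0517) and without stiff replicate 1, stiff replicate 3, soft replicate 2 or soft replicate 3 (0.0704 to 0.105). S100a14, named after its values were seen, averaged 4.12 FPKM in stiff and 6.73 FPKM in soft gels (log2 fold change -0.60, limma adjusted p = 0.0352). The envelope precursors involucrin (Ivl) and loricrin (Lor) were at 12.01 and 1.46 FPKM in stiff gels and at 13.9 and 2.45 FPKM in soft gels, and neither was called (limma adjusted p = 0.631 and 0.0804). Of the 8 epidermal keratinocyte markers only Krt10, Ivl and Lor were in the table, and they summed to 12.7 to 16.5 FPKM in stiff and 15.0 to 21.6 FPKM in soft gels, ranges that overlap. Trp63, the master regulator of stratified epithelium, was not analysed here.

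Genes that anchor or bind keratins were mostly not called. Of 16 tested anchors and partners, 1 fell and 0 rose, a count close to the 5.81% of all tested genes called in either direction. That was Itga6, the integrin subunit of hemidesmosomes, at 24.6, 24.3 and 23.7 FPKM in the stiff libraries, against 31.0, 31.5 and 28.8 FPKM in the soft libraries (log2 fold change -0.32 ± 0.06 SE, limma adjusted p = 0.0209). The Itga6 call was lost without stiff replicate 1, 2 or 3 or soft replicate 2 (limma adjusted p = 0.0601 to 0.09). Its partner Itgb4 was at 7.75 FPKM in stiff and 8.61 FPKM in soft gels (limma adjusted p = 0.375). Desmoplakin (Dsp), which ties keratin to desmosomes, averaged 11.5 FPKM in stiff and 13.4 FPKM in soft gels (limma adjusted p = 0.222). Plectin (Plec), a linker of filaments, averaged 4.38 FPKM in stiff and 5.68 FPKM in soft gels without overlap (limma adjusted p = 0.0918). Of 10 tested basal keratinocyte markers other than keratins 1 fell, again Itga6, and 1 rose, the growth factor receptor gene Fgfr2, at 8.68 FPKM in stiff and 5.05 FPKM in soft gels (0.68 ± 0.13 SE, limma adjusted p = 0.0194). The Fgfr2 call was lost without stiff replicate 1, stiff replicate 3, soft replicate 2 or soft replicate 3 (limma adjusted p = 0.0586 to 0.0838).

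Of 13 tested epithelial transcription factors, 2 rose and 1 fell, against 3.13% higher and 2.68% lower over all tested genes. Elf3, an ETS factor of simple and squamous epithelia, was at 5.97, 5.82 and 5.31 FPKM in the stiff libraries, against 7.91, 10.5 and 10.5 FPKM in the soft libraries (log2 fold change -0.66 ± 0.11 SE, limma adjusted p = 0.0133). The Elf3 call was lost without stiff replicate 1, stiff replicate 3 or soft replicate 2 (limma adjusted p = 0.0555 to 0.063). The groups did not overlap, and soft replicate 1 was the nearest of its group to the stiff libraries. Klf4, a factor of the skin barrier named after its values were seen, rose, at 3.92, 3.76 and 3.43 FPKM in the stiff libraries, against 2.44, 2.60 and 2.57 FPKM in the soft libraries (0.41 ± 0.078 SE, limma adjusted p = 0.0211).

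Sprr1a is also an injury gene, and genes of that kind were described beside it. Of 10 tested injury and alarm genes of epithelia and nerve, 4 fell and 1 rose, with a median log2 fold change of -0.47, against 2.68% lower and 3.13% higher over all tested genes. Gap43, a growth cone protein gene induced with Sprr1a in injured neurons, was at 1.93, 1.78 and 1.04 FPKM in the stiff libraries, against 4.01, 6.23 and 7.46 FPKM in the soft libraries (log2 fold change -1.40 ± 0.20 SE, limma adjusted p = 0.00965). The Gap43 call was lost without soft replicate 2 (limma adjusted p = 0.0554). The protease inhibitor gene Slpi, named after its values were seen, was at 0.490 FPKM in stiff and 1.56 FPKM in soft gels (limma adjusted p = 0.0411), and Plaur and Lcn2 were the others that fell. Slpi had 29 reads over the stiff and 96 over the soft libraries. It passed the filter only through the soft group, so its place among the 4 partly follows from the filter. Lcn2, which encodes the iron-binding defence protein lipocalin 2, was at 16.7, 13.6 and 6.48 FPKM in the stiff libraries, against 35.0, 83.3 and 51.4 FPKM in the soft libraries without overlap (log2 fold change -2.12 ± 0.35 SE, limma adjusted p = 0.014). Atf3, a transcription factor gene also induced by nerve injury, moved the other way, at 40.4 FPKM in stiff and 25.9 FPKM in soft gels (0.62 ± 0.11 SE, limma adjusted p = 0.0159). The Atf3 call was lost without stiff replicate 1 or soft replicate 2 (limma adjusted p = 0.0789 and 0.0756). Neuron markers were low in both gels, with 3 of 5 in the table and a summed level of 1.26 to 1.75 FPKM in stiff and 1.49 to 1.67 FPKM in soft gels. In the soft group Gap43 was lowest in replicate 1, and so were Krt7, Krt17 and Sprr1a.

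The other intermediate filament genes were not called: of 6 tested, 0 passed the threshold (limma; 2 had an unadjusted p under 0.05). Vimentin (Vim), the filament of mesenchyme and of many cultured cells, was at 578, 592 and 573 FPKM in the stiff libraries, against 524, 542 and 610 FPKM in the soft libraries (log2 fold change 0.06, limma adjusted p = 0.728), so it was above Krt18 in every library. Endothelium markers, all 5 of them in the table, summed to 14.7 to 20.0 FPKM in stiff and 26.0 to 34.8 FPKM in soft gels, a difference that lay mainly in Kdr. Kdr, the VEGF receptor gene and the single called marker of 3 tested, averaged 10.7 FPKM in stiff and 24.7 FPKM in soft gels (log2 fold change -1.13, limma adjusted p = 0.0104). Vwf lay under the filter, at 0.296 FPKM in stiff and 0.617 FPKM in soft gels on average, from 134 and 292 reads. Its groups did not overlap, as in 10.3% of all listed genes with stiff lower. The authors' deposited table has Vwf lower as well (-1.09, q = 0.00233). Cdh5 and Tek overlapped between gels, and Pecam1 was at most 0.134 FPKM in any library. These sums, like those of the cochlear epithelium and mesenchyme markers, differed between gels without overlap; their part in the values of Krt7, Krt19, Krt17 and Sprr1a was not tested. Those of glia overlapped, at 109 to 133 FPKM in stiff and 87.3 to 116 FPKM in soft gels.

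**Figure D5:**
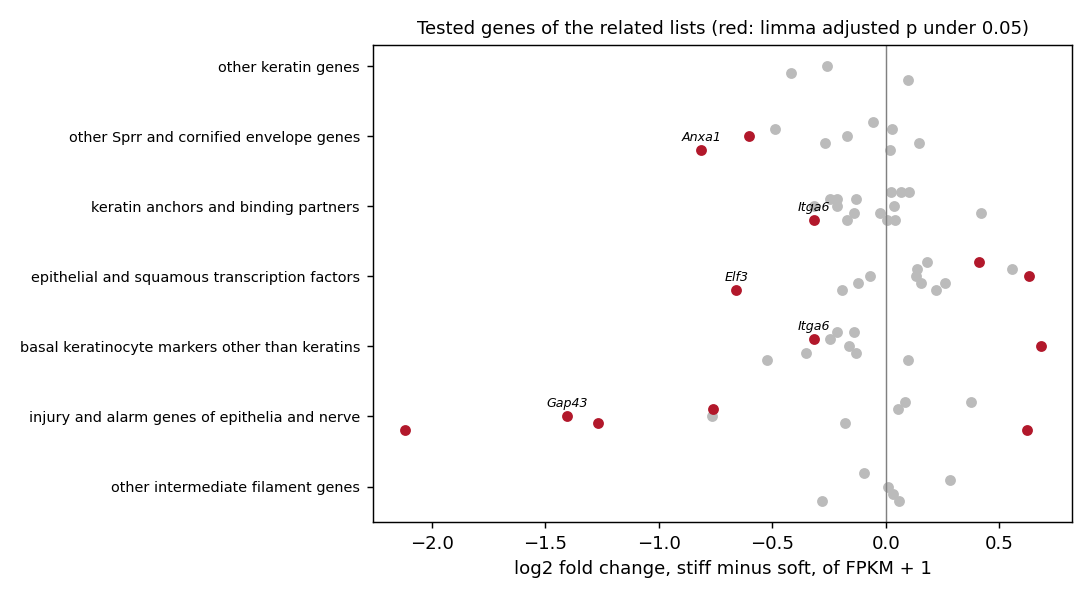
Log2 fold change of FPKM + 1, stiff minus soft, of every tested gene in the 7 related lists; red points passed an adjusted p under 0.05 in limma over all tested genes, and the leading gene called lower in each list is named. Called genes lie on both sides of 0 among the transcription factors, the basal keratinocyte markers and the injury genes.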

How the data were processed

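The authors deposited 1 table of 15016 genes. Its 6 expression columns are headed only as expression; the values fit FPKM, and they are used as FPKM deposited by the authors. The other columns hold the authors' stiff-versus-soft test: the base mean, a signal in normalized counts, log2 fold change, standard error, fold change ratio, Wald score, p-value and q-value, per the file headers. TopHat2 2.1.1, DESeq2 and mm10 are named per the submitters' processing notes, and no read counter or annotation is.

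The 9 genes, the lists and the motifs were chosen with earlier results of these data known. Genes averaging at least 1 FPKM in either group (11780) entered a limma 3.58.1 fit (R 4.3.3) of log2(FPKM + 1) with an intensity trend and no block, stiff minus soft. A call needed a Benjamini-Hochberg adjusted p under 0.05. This scale understates changes of low genes. Dividing FPKM back through the base mean gave whole reads for 100% of values (within 0.05 reads), and for 100% of counts simulated for 14978 genes. The limma step was tested on simulated data. Depth was 16108470 to 17899391 reads. Named were the 9 genes, the called gene of lowest adjusted p per direction of each list (with no call, its most abundant gene), and the 3 genes most correlated with each. Krt6a, Krt6b, Krt10, Krt79, S100a14, Ivl, Lor, Itgb4, Dsp, Plec, Klf4, Slpi, Plaur, Lcn2 and the marker genes named lie outside this rule and were chosen after their values were seen. A gene that the rule names is not reported here. Alternatives were the pseudocount, the filter, scaling, trend, block, limma-voom and leaving out each library. The kit does not mark strand. Gene positions are from GENCODE M21, and shared stretches from its transcripts.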

Additional observations from a re-analysis of the deposited data

How the results depend on the processing

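Krt7, Krt19, Krt17 and Sprr1a kept their direction in all 14 alternatives, and all 4 stayed called with other pseudocounts, filters or scaling, without the trend, with limma-voom and with the replicate block. Leaving out 1 library gave 0 to 4 called members: 1 without stiff replicate 1, 2 without stiff replicate 2, 1 without stiff replicate 3, 4 without soft replicate 1, 0 without soft replicate 2 (limma; 4 had an unadjusted p under 0.05) and 2 without soft replicate 3. The number of calls over all tested genes, 685 with all libraries, was 65 to 1627 in those fits, lowest without soft replicate 2 and highest without soft replicate 1. The cause was not tested. The log2 fold change of Krt8 was -0.10 to 0.042 when 1 library was left out, turned to 0.025 without stiff replicate 3 and to 0.042 without soft replicate 3, and was never called. With the replicate block 710 genes were called, and 4 of the described genes. Deviations of same-numbered libraries from their group means had r = 0.0087, 0.22 and -0.21. Those of differently numbered libraries had r from -0.38 to 0.35. With 3 libraries a group, these values cannot decide whether same-numbered libraries share more than a number. Krt5 had 4 to 13 reads a library, so counting error is large for it; Krt14 had 6 to 61, and the cause of its spread was not tested. Genes named after their values were seen were not followed through the alternatives.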
